A study of Homo sapiens with 6 samples.

Results

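The genes described are the integrin alphaV subunit (ITGAV) and the beta subunits known to pair with it, ITGB1, ITGB3, ITGB5, ITGB6 and ITGB8. They were taken by name, as every array probe set whose platform annotation gives that symbol and no other, which gave 24 of 54613 probe sets and values for 5 of the 6 genes. The cells were OVCA432, an established human line from high grade serous ovarian cancer, measured as messenger RNA on Affymetrix U133 Plus 2.0 arrays. Every culture spent 24 h in medium lacking serum and then received fresh serum-free medium. In the MFAP5 group (3 arrays) the medium held 200 ng/mL of recombinant human microfibrillar associated protein 5, and in the control group (3 arrays) only the solvent. RNA was collected after 48 h from samples that the series calls independent. A single cell line under serum-free culture, with a purified protein added from outside, limits what the groups stand for, and protein at the cell surface was not measured.

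Integrins are transmembrane receptors made of an alpha and a beta chain that link the extracellular matrix to the actin cytoskeleton. Dimers of alphaV recognise the RGD tripeptide in matrix proteins such as vitronectin, fibronectin and osteopontin, and the beta chain sets much of the choice of ligand and the contacts made inside the cell. MFAP5 itself carries an RGD tripeptide and is known as a ligand of alphaV beta3, which the study placed at the start of a signalling route in these cells.

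The deposited values were MAS5 signals, a linear brightness per probe set. A probe set was tested if its mean log2 signal over the 6 arrays was at least the median over probe sets, equal to a signal of 53.7. It was called where limma gave a Benjamini-Hochberg adjusted p below 0.05 over the 27307 probe sets tested. Of these, 25.2% were called, 13.5% higher and 11.8% lower with MFAP5. The signal that counts as background here is the brightest of the 27 control probe sets for Bacillus RNA, which was 26.4 to 55.9 on the 6 arrays. The cells carried all 10 epithelial and ovarian cancer markers checked above that background on every array. The number above it on every array was 2 of 9 for fibroblasts, 0 of 7 for endothelium, 1 of 6 for platelets and 0 of 7 for leukocytes. RNA integrity was read as log2 of the signal of the 3' probe set over the 5' one. It was -0.20 to -0.06 in control and -0.13 to -0.06 in MFAP5 arrays for GAPDH (two-sided exact permutation p = 0.5). For ACTB it was 0.23 to 0.34 and 0.21 to 0.34 (exact permutation p = 0.6, where 0.1 is the smallest possible with 3 against 3 arrays). The arrays read the RNA of whole wells, in which fewer cells expressing a gene and less RNA per cell cannot be told apart.

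ITGAV, ITGB1, ITGB3 and ITGB8 mRNA rose with MFAP5 and ITGB5 mRNA rose the least. By the brightest probe set of each gene, ITGAV, ITGB3 and ITGB8 rose 2.06-fold, 2.15-fold and 2.05-fold, ITGB1 1.52-fold and ITGB5 1.20-fold. These are 5 of 5 genes with values, where 14.6% of all 12216 genes tested were called higher, 6.57% were called with at least the rise of ITGB1 and 2.79% with at least a 2-fold rise. Of the 24 probe sets, 19 passed the filter, 16 of these rose, none fell and 3 were not called. In 16 of the 19, the same ones as were called, every MFAP5 array lay above every control array. This held for 21.9% of all probe sets tested (41% in either direction) and 22.3% of all genes. The genes were named with earlier results in view and the study picked alphaV and beta3 on these samples, so these counts are no independent evidence of a direction.

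**Figure D1:**
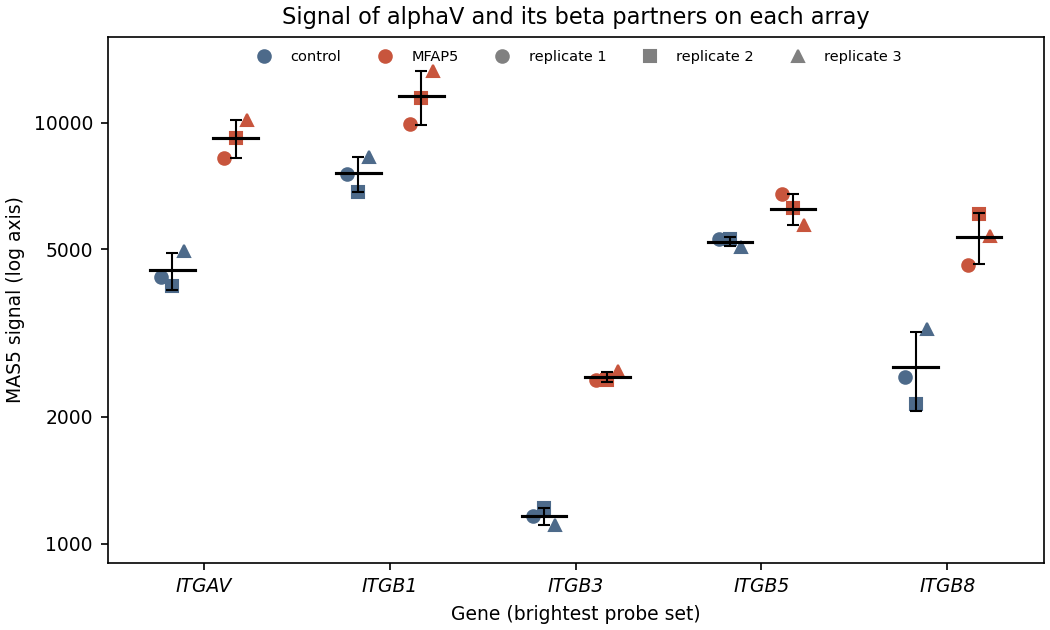
Signal (log axis) of the brightest probe set of ITGAV, ITGB1, ITGB3, ITGB5 and ITGB8 on each array, with circles, squares and triangles for replicates 1 to 3 and bars for the mean ± SD of the 3 arrays of a group. In each gene the 3 MFAP5 arrays lie above the 3 control arrays; the gap is widest for ITGB3 (lowest MFAP5 signal 2.02 times the highest control signal) and smallest for ITGB5 (1.08 times). Heights of different genes come from different probes and have no order.

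ITGAV encodes the alpha chain that all of these dimers share. Its only probe set (202351_at) had signals of 4309, 4091 and 4964 on the control arrays and 8258, 9172 and 10148 on the MFAP5 arrays. The lowest MFAP5 array was 1.66 times the highest control array, so the groups were far apart. The mean rose from 4454 ± 455 to 9193 ± 946 (SD, n = 3 each), which on the log2 scale is 1.05 ± 0.09 (SE; limma, adjusted p = 4.13e-05). With 1 probe set, no second set of probes bears on this value.

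The sequence upstream of ITGAV is shown because all these dimers share its product, and that of ITGB1 because it held the most motif matches of the members. These are the 250 bases before the furthest upstream start that RefSeq lists (GRCh38.p14), at chr2:186589806-186590055 on the plus strand for ITGAV and chr10:32958231-32958480 on the minus strand for ITGB1. Capitals mark matches on either strand to the CREB site (CRE), written TGACGTCA, the AP-1 site, written TGANTCA, the TEAD site, written GGAATG, the Sp1 site, written GGGCGG, or the start of the TATA box, written TATAAA.
ITGAV: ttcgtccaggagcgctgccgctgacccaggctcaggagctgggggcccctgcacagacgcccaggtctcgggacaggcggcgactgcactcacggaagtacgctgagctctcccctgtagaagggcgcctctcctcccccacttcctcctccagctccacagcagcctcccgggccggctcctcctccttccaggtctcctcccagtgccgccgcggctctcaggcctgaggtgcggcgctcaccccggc
ITGB1: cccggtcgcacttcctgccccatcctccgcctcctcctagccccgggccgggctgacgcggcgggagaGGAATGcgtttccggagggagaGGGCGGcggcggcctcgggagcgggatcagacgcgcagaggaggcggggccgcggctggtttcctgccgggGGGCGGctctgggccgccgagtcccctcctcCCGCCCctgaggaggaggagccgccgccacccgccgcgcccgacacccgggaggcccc
The ITGAV window held none of these motifs and was 70.8% G and C, against a median of 57.6% over the 24885 genes with such a window. The ITGB1 window was 78.4% G and C, with 1 TEAD match and 3 Sp1 matches. Among all the windows 1.79% held a CRE, 6.67% an AP-1, 12% a TEAD, 41.7% an Sp1 and 11.4% a TATA match. The corresponding ITGB5 window held 2 Sp1 matches and no other motif, and that of ITGB6 none. For ITGB8 only a window at a start further downstream was listed, with 2 Sp1 matches. A match is only a run of letters, and its absence says nothing about a factor. ITGB3 had no entry in the table of sequences.

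ITGB3 encodes beta3, which forms the vitronectin receptor with alphaV and the platelet fibrinogen receptor with ITGA2B. Its brightest probe set (204627_s_at) read 1161, 1212 and 1107 in control and 2444, 2448 and 2570 in MFAP5 cells. The lowest MFAP5 array was 2.02 times the highest control array. The mean rose from 1160 ± 52 to 2487 ± 72 (SD, n = 3 each), or by 1.10 ± 0.07 in log2 units (SE; limma, adjusted p = 4.75e-06). Of the 7 ITGB3 probe sets, 6 passed the filter and all 6 rose, by 1.87-fold to 2.56-fold. The dimmest of the 6, 215240_at, read 115, 96.2 and 142 in control and 193, 287 and 276 in MFAP5 cells, and its groups did not overlap (limma adjusted p = 0.00466). The seventh, 211579_at, lay at 4.16 to 36.7, above background on 1 of the 6 arrays, and was not tested.

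Because beta3 is abundant in platelets, markers of that lineage were read beside it. The summed signal of 6 platelet markers was 176 to 208 on the control arrays and 230 to 329 on the MFAP5 arrays, so the sums did not overlap. Of the 6, only ITGA2B and GP1BA passed the filter and were tested, and neither was called. GP9 and PPBP were at or below background on all 6 arrays. PF4 lay below the filter and was not tested, at 3.27 to 9.84 in control and 29.4 to 50.7 in MFAP5 cells, above background on 2 arrays. ITGA2B, the alpha chain that pairs with beta3 in platelets, was above background on all arrays. It read 137, 94.0 and 97.6 in control and 116, 83.6 and 122 in MFAP5 cells, so its groups overlapped (limma adjusted p = 0.946).

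ITGB8 encodes beta8, which pairs only with alphaV, binds latent TGF-beta and has a cytoplasmic tail unlike that of the other beta chains. Its brightest probe set (226189_at) read 2483, 2151 and 3238 in control and 4592, 6075 and 5373 in MFAP5 cells. The groups did not overlap, though the arrays within each spread more than for ITGB3. The log2 fold change was 1.04 ± 0.14 (SE, limma adjusted p = 0.000631), from 2624 ± 557 to 5346 ± 742 (SD, n = 3 each). All 5 ITGB8 probe sets passed the filter and 4 rose, by 1.21-fold to 2.05-fold.

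The second brightest ITGB8 probe set, 205816_at, read 2086, 2256 and 2179 in control and 2637, 2554 and 2714 in MFAP5 cells. It rose 1.21-fold, and the 95% intervals of these log2 fold changes, 0.72 to 1.36 for 226189_at and 0.13 to 0.43 for 205816_at, did not meet. The log2 difference between these probe sets on an array was 0.25, -0.07 and 0.57 in control and 0.80, 1.25 and 0.98 in MFAP5 cells, a comparison chosen after the values were seen and given as a description. The array therefore does not give a single size for the change in ITGB8. 211488_s_at rose 1.47-fold and 1563010_at 1.74-fold. The call of 205816_at was lost without control replicate 1 (limma adjusted p = 0.053), centred on array medians (0.16), centred on hybridisation controls (0.357) and without the intensity trend (0.0555). 242982_x_at, of a type that can share probes with other transcripts, was not called (171, 162 and 330 in control; 315, 292 and 298 with MFAP5). Without control replicate 3, its highest array, it was called at a log2 fold change of 0.86 (limma adjusted p = 0.00348).

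**Figure D2:**
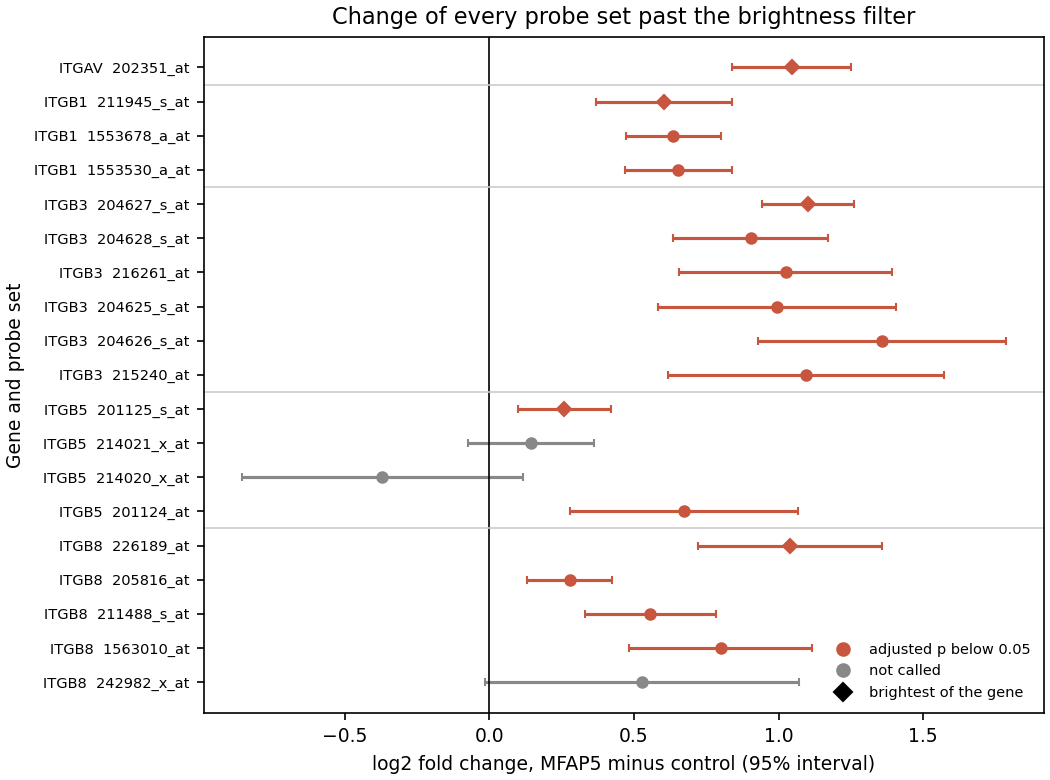
Log2 fold change, MFAP5 minus control, with its 95% limma interval for the 19 probe sets past the filter, by gene; diamonds mark the brightest probe set of each gene and red those with adjusted p below 0.05. The ITGB1 and ITGB3 probe sets lie at 0.60 to 0.65 and 0.90 to 1.36, while those of ITGB8 spread from 0.28 to 1.04 and those of ITGB5 from -0.37 to 0.67.

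ITGB1 encodes beta1, which pairs with many alpha chains, among them receptors for collagen, laminin and fibronectin, as well as with alphaV. Its brightest probe set (211945_s_at) read 7572, 6842 and 8306 in control and 9938, 11459 and 13278 in MFAP5 cells. The lowest MFAP5 array was 1.20 times the highest control array. The log2 fold change was 0.60 ± 0.11 (SE, n = 3 each, limma adjusted p = 0.00247). The other 2 ITGB1 probe sets past the filter, 1553678_a_at and 1553530_a_at, rose 1.55-fold and 1.57-fold, so the 3 differed by less than their errors. The other 4 lay between 0.276 and 26.3, below background on every array, and were not tested.

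ITGB5 encodes beta5, the partner of alphaV in another vitronectin receptor, which is widespread in epithelial cells. Its brightest probe set (201125_s_at) read 5283, 5283 and 5060 in control and 6764, 6272 and 5709 in MFAP5 cells. The groups did not overlap, but the rise was small, 1.20-fold with a 95% interval of 1.07 to 1.34 (limma adjusted p = 0.025, n = 3 each). Of the other probe sets, 201124_at rose 1.59-fold (154, 156 and 124 against 255, 241 and 195; limma adjusted p = 0.02). The remaining 2, 214021_x_at and 214020_x_at, can share probes with other transcripts and were not called, with log2 fold changes of 0.14 and -0.37.

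The call of its brightest probe set was lost without control replicate 1 (limma adjusted p = 0.0599), control replicate 2 (0.0598), MFAP5 replicate 1 (0.0765) or MFAP5 replicate 2 (0.0872). That of 201124_at was lost without control replicate 3 (0.0506), MFAP5 replicate 1 (0.0668) or MFAP5 replicate 2 (0.0738). It was lost under centring on array medians for the brightest probe set (0.226), and under centring on hybridisation controls for both (0.348 and 0.0553). The brightest probe set also lost it without the intensity trend (0.101).

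ITGB6 encodes beta6, an epithelial chain that pairs with alphaV and activates latent TGF-beta. It has no value of its own here, because the 4 probe sets listed for it are also listed for the long non-coding RNA LINC02478. The only one of the 4 past the filter, 226535_at, read 83.9, 73.2 and 59.9 in control and 103, 94.9 and 82.2 in MFAP5 cells, and cannot be assigned to either gene. It was not called (log2 fold change 0.38, limma adjusted p = 0.279). The other 3 lay between 5.61 and 43.1.

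No member probe set passed the filter through its MFAP5 arrays alone: the lowest control signal among the 19 was 96.2, against the limit of 53.7. All 19 were above background on all 6 arrays. Of the 5 below the filter, 4 were below background on every array.

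Whether a beta chain changed by as much as ITGAV was read as the log2 signal of its brightest probe set minus that of ITGAV on the same array, in which the scaling of the array cancels. For ITGB5 the difference was 0.29, 0.37 and 0.03 on the control arrays and -0.29, -0.55 and -0.83 on the MFAP5 arrays. Every MFAP5 array lay below every control array, and the mean fell by 0.79 on the log2 scale. For ITGB1 it was 0.81, 0.74 and 0.74 in control and 0.27, 0.32 and 0.39 with MFAP5, and the mean fell by 0.44. ITGB1 and ITGB5 thus lay lower relative to ITGAV with MFAP5, each with an exact permutation p of 0.1, the smallest that 3 against 3 arrays allow, and 0.2 adjusted over the 4 comparisons. With all probe sets of a gene averaged, the mean difference for ITGB1 was -0.40 with an exact permutation p of 0.3.

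For ITGB3 the difference was -1.89, -1.76 and -2.17 in control and -1.76, -1.91 and -1.98 with MFAP5, so the groups overlapped. For ITGB8 it was -0.80, -0.93 and -0.62 in control and -0.85, -0.59 and -0.92 with MFAP5, and the groups overlapped as well. The mean differences of 0.06 and -0.01 were smaller than the spread between arrays (exact permutation p = 0.9 and p = 1, n = 3 each), which does not show that these genes changed alike. Without control replicate 3 they were -0.058 and 0.075. With all probe sets of a gene averaged they were -0.27 (exact permutation p = 0.4) and -0.40 (exact permutation p = 0.1). The ITGB3 average takes in 211579_at, which lay below the filter, at 8.80 to 36.7 in control and 4.16 to 15.6 with MFAP5.

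**Figure D3:**
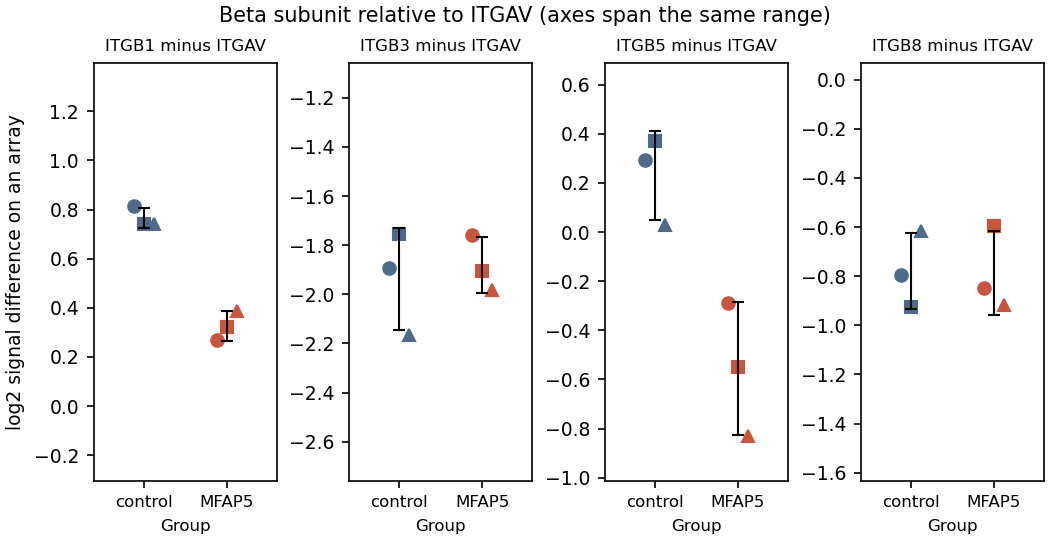
Log2 signal of each beta subunit minus that of ITGAV on the same array, by group, with circles, squares and triangles for replicates 1 to 3 and bars for the mean ± SD (n = 3). The MFAP5 arrays lie below the control arrays for ITGB1 and ITGB5 and among them for ITGB3 and ITGB8; each axis spans the same log2 range, and its zero has no meaning of its own because the probes differ.

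Control replicate 3 was the highest control array for ITGAV, ITGB1 and ITGB8 and the lowest for ITGB3 and ITGB5. MFAP5 replicate 1 was the lowest MFAP5 array for ITGAV, ITGB1, ITGB3 and ITGB8 and the highest for ITGB5. Over the 6 arrays, with each gene centred on its own mean, the ITGAV profile lay nearest those of ITGB8 (Euclidean distance 0.33 in log2 units) and ITGB3 (0.34), then ITGB1 (0.55) and ITGB5 (1.07). These distances use the brightest probe set of each gene, describe the 6 arrays and mostly follow the difference between the groups. For ITGB8 that probe set had the largest rise of the 5. The second brightest, 205816_at, rose by 0.28 in log2 units, against 1.05 for ITGAV, so the place of ITGB8 depends on the probe set.

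Among 12211 other genes, those nearest to ITGAV by the same distance were RORA (0.11), GADD45A (0.13) and UCA1 (0.14), which rose 2.07-fold, 2.10-fold and 2.11-fold. Nearest to ITGB3 were FRY (0.10), CADM1 (0.11) and ARAP3 (0.12). Nearest to ITGB8 were CAV2 (0.25), ST3GAL6 (0.26) and C17orf67 (0.26), further away than the nearest genes of the other members. Nearest to ITGB1 were RRM2B (0.10), VPS13A (0.10) and IKZF2 (0.13). Nearest to ITGB5 were BBX (0.05), LONP1 (0.07) and MAN2A2 (0.08), all with small changes of 1.21-fold, 1.19-fold and 1.16-fold, of which that of MAN2A2 was not called.

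Genes that work with these integrins were read from 6 lists by role, 111 genes of which 77 passed the filter. In all 25 rose and 4 fell, where 29.9% of all genes were called, 14.6% higher and 15.3% lower. Ligands of alphaV integrins made up the list with most rises. Of 13 ligands tested, 8 rose, 1 fell and 4 were not called, with a median log2 fold change of 1.20 against -0.01 over all genes; the median gene, VWF, was itself not called. TNC, which encodes the matrix glycoprotein tenascin C, rose 5.68-fold, from 180, 179 and 243 to 1266, 1038 and 1099. SPP1, which encodes osteopontin, an RGD ligand of alphaV beta3, rose 4.93-fold, from 443, 406 and 378 to 2059, 1993 and 1977 (limma adjusted p = 1.83e-07). CCN2, a matricellular protein, rose 3.82-fold and MFGE8, an RGD protein that bridges dying cells to phagocytes, 2.96-fold. The ligand that fell was L1CAM, named after its value was seen, by 0.84 on the log2 scale.

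Of 10 other integrin subunits tested, each by its brightest probe set, 2 rose, none fell and 8 were not called (median log2 fold change 0.08). ITGA2, named after its values were seen, was among those not called (log2 fold change -0.68, limma adjusted p = 0.124). Its groups did not overlap, at 81.2, 128 and 88.8 in control and 43.5, 67.0 and 77.5 with MFAP5. The other ITGA2 probe set past the filter was called lower. ITGA3, a laminin-binding partner of beta1, rose 2.03-fold, from 130, 105 and 112 to 245, 242 and 216 (limma adjusted p = 0.00171). ITGA9 rose 1.63-fold, a call lost without MFAP5 replicate 2 (limma adjusted p = 0.0707). Of 8 genes tested on the list for latent TGF-beta handling, 3 rose, none fell and 5 were not called (median 0.25). LTBP2, listed for its gene family and not for a binding shown here, rose 1.91-fold. TGFB2, a TGF-beta ligand, rose 1.31-fold. LTBP1, which anchors latent TGF-beta in the matrix, rose 1.17-fold. The LTBP1 call was lost without any array other than control replicate 3 (limma adjusted p = 0.0571 to 0.0815), and the TGFB2 call without control replicate 1 (0.0685), control replicate 2 (0.0573) or MFAP5 replicate 3 (0.0571). Centred on array medians or on hybridisation controls, neither LTBP1 (limma adjusted p = 0.351 and 0.494) nor TGFB2 (0.11 and 0.219) was called, and with probe sets averaged they were not called either (0.118 and 0.185). LTBP1 was also not called without the filter (0.0516) or without the intensity trend (0.0815).

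**Figure D4:**
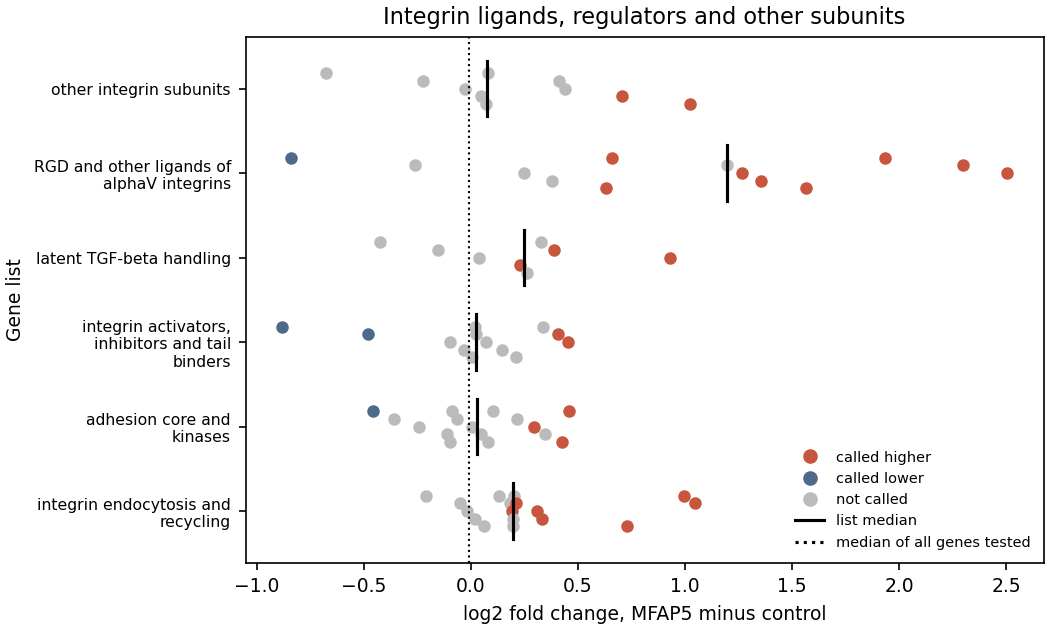
Log2 fold change, MFAP5 minus control, of the genes past the filter in 6 lists by role, 1 point per gene, red for called higher, blue for called lower and grey for not called; solid bars mark list medians and the dotted line the median of all genes tested (-0.01). The ligands of alphaV integrins reach 2.51 and have a median of 1.20, while the medians of the other 5 lists lie between 0.02 and 0.25. The ligand median is the value of VWF, which was not called and passed the filter through its MFAP5 arrays.

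Of 13 genes tested on the list of integrin activators, inhibitors and tail binders, 2 rose, 2 fell and 9 were not called (median 0.02). The called share was 30.8%, against 29.9% of all genes. FERMT1, a kindlin, which helps to activate integrins by binding the beta tail, was 1.84-fold lower, from 569, 576 and 527 to 299, 315 and 293 (limma adjusted p = 0.000306), and its other 2 probe sets past the filter fell as well. SHARPIN, an inhibitor of integrin activation, was 1.40-fold lower. CD47, a membrane protein that associates with alphaV beta3, rose 1.37-fold, as did its 5 other probe sets past the filter. DOK1, an adaptor that competes for the beta tail, rose 1.33-fold. The SHARPIN call was lost without control replicate 1 (0.0572), control replicate 2 (0.0583) or MFAP5 replicate 3 (limma adjusted p = 0.0516). The DOK1 call was lost without any array other than control replicate 1 (limma adjusted p = 0.0519 to 0.0743), centred on array medians (0.107) or hybridisation controls (0.217), and with probe sets averaged (0.105).

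Of 16 adhesion core genes and kinases tested, 3 rose, 1 fell and 12 were not called (median 0.03). TGFB1I1, a paxillin relative, rose 1.37-fold, PTK2, the focal adhesion kinase, 1.34-fold and VCL, which encodes vinculin, 1.23-fold. Of the 3 other PTK2 probe sets past the filter, only 1 was called higher and none lower. Centred on hybridisation controls, PTK2 (limma adjusted p = 0.0724) and VCL (0.198) were not called, nor was VCL centred on array medians (0.0774) or without the intensity trend (0.0557). With all VCL probe sets averaged the log2 fold change was -0.20 (limma adjusted p = 0.607). RSU1, a partner of the ILK complex, was 1.37-fold lower. The RSU1 call was lost without MFAP5 replicate 2 (limma adjusted p = 0.0799) or without the intensity trend (0.0693). That of TGFB1I1 was lost without control replicate 1 (0.0682), control replicate 2 (0.0622) or MFAP5 replicate 2 (0.063), and centred on array medians (0.0834) or hybridisation controls (0.157).

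Of 17 genes of integrin uptake and recycling, 7 rose, none fell and 10 were not called (median 0.20). CAV1, which encodes caveolin, rose 2.07-fold, from 2197, 2272 and 2502 to 4601, 4979 and 4804 (limma adjusted p = 6.7e-06). RAB25, a small GTPase known for returning integrins to the surface of ovarian cancer cells, rose 2.00-fold, from 2228, 2315 and 2138 to 4835, 4392 and 4132. PRKD1, a kinase of beta3 recycling, rose 1.66-fold and RAB11FIP1, which binds RAB25, 1.26-fold. The RAB11FIP1 call was lost centred on hybridisation controls (limma adjusted p = 0.162) and with its probe sets averaged (log2 fold change 0.16, 0.0965).

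**Figure D5:**
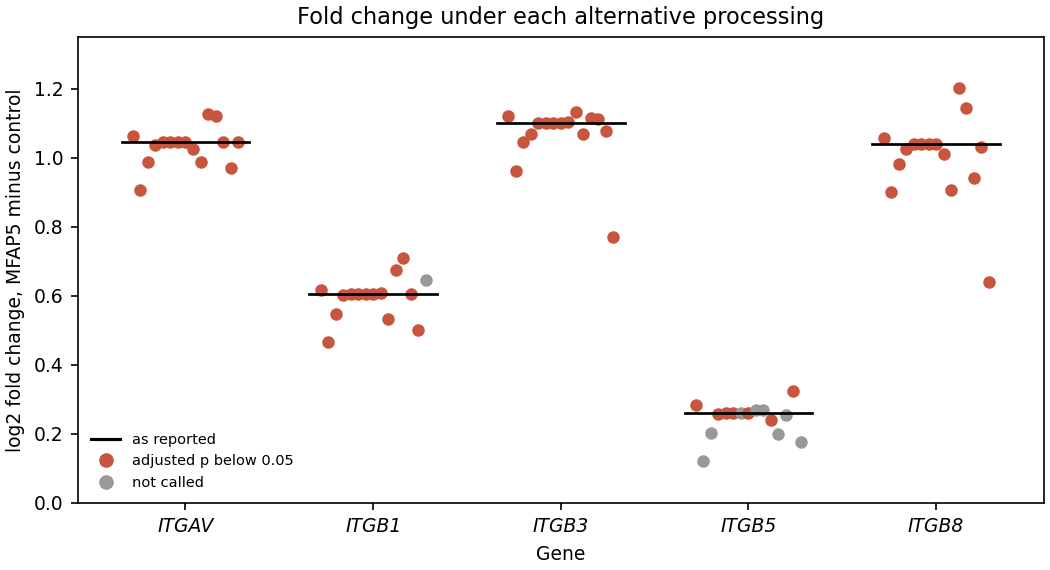
Log2 fold change of the 5 genes under each of the 15 alternative ways of processing (points, red where adjusted p was below 0.05 and grey where not), with the reported value as a bar. ITGAV, ITGB3 and ITGB8 stay called at 0.64 to 1.20, ITGB1 is grey once and ITGB5 8 times.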

How the data were processed

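Messenger RNA of 6 OVCA432 samples, 3 with MFAP5 and 3 with solvent, was measured on 6 arrays. Groups and replicate numbers came from the sample titles. The authors deposited a linear intensity per probe set and array, made with MAS5 per the submitters' processing notes (version not given in the sources used here). Leaving out 2% at each end, the mean signal was 500.1 on all 6 arrays, so they had been scaled to a common level and these values cannot show a shift of the whole transcriptome. No further scaling was applied. The number of arrays limits the precision.

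Probe sets were named through the platform annotation: 41091 carried 1 symbol, 1801 several and 11721 none, and 41037 of the first matched RefSeq genes by Entrez identifier. The 62 control probe sets were left out. The log2 signals were fitted in limma 3.58.1 under R 4.3.3 (lmFit and eBayes, whose prior variance followed the mean signal; two-sided tests, 4 residual and 6.15 prior degrees of freedom), a fit tested on simulated data. A gene was represented by its brightest probe set on the mean log2 signal. Beta minus alphaV differences used an exact permutation test over arrays. ITGB6 had no probe set of its own, so 4 of 5 planned comparisons were made.

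The members and lists were chosen with earlier results of these data known. Named by rule were all member probe sets, up to 4 called genes with the largest change per list, and the 3 genes with the nearest profile per called member. Alternatives varied the scaling, an added 50, the filter, the trend, the replicate block, the probe set rule and each array left out.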

Additional observations from a re-analysis of the deposited data

How the results depend on the processing

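Log2 fold changes of ITGAV, ITGB1, ITGB3, ITGB5 and ITGB8 under the 15 alternatives gave 75 values, of which 66 stayed on their side of the threshold, 9 lost the call and 0 changed sign. ITGB5 lost its call centred on array medians (0.12), centred on hybridisation controls (0.20), without the intensity trend (0.26) and with all its probe sets averaged (0.18). With an array left out it ranged from 0.20 to 0.32. ITGB1 averaged over its probe sets, 4 of 7 of which were below background, was not called (0.65, limma adjusted p = 0.056).

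Member probe sets called higher numbered 13 to 16 of 19, or 10 of the 11 left among the brightest 25%, where fewer were tested; 0 were called lower. Over all probe sets, 3679 were higher and 3209 lower as reported. Centring on array medians, which moved the median of the log2 fold changes by -0.14, gave 2302 and 5975. Centring on hybridisation controls gave 1920 and 2011, and the brightest 25% gave 2422 and 2830. The cause of these shifts was not tested. With an array left out 2532 to 3557 were higher and 2118 (without MFAP5 replicate 2) to 3117 lower.

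List genes rose in 25 cases and fell in 4, against 15 rises centred on hybridisation controls or with probe sets averaged, and 9 falls centred on array medians. VCL turned to -0.20 when averaged. Minus ITGAV, ITGB3 turned to -0.27 when averaged and ranged from -0.058 to 0.15 with an array left out, and ITGB8 from -0.10 to 0.075.

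The sample titles link same-numbered arrays by nothing but the number. Their deviations correlated at 0.09, -0.01 and 0.17 across probe sets. Control replicates 1 and 3 each correlated best with the MFAP5 replicate of the same number, and control replicate 2 with MFAP5 replicate 1 (0.10). These values do not settle whether the numbers mark pairs. With the replicate number as a block, 4214 probe sets were higher and 3774 lower, and 16 of 19 member probe sets were called higher. The SE of the log2 fold change was then 0.06 against 0.09 for ITGAV and 0.07 against 0.11 for ITGB1. For ITGB3 it was 0.07 either way.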

Other observations

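Transcripts named for their position beside the integrin genes were read after the values were seen. ITGB8-AS1, an antisense transcript of the ITGB8 locus, read 445, 488 and 232 on the control arrays and 607, 547 and 481 on the MFAP5 arrays. The groups overlapped, and it was not called (log2 fold change 0.55, limma adjusted p = 0.123). ITGB1-DT, a divergent transcript at ITGB1, lay at 6.50 to 47.7 on the 6 arrays, below the brightness filter, and was not tested.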
